A study of Zea mays with 6 samples.

Results

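Phytochromes are the red and far-red light receptors of plants, and maize carries 2 copies of each of the types phyA, phyB and phyC. Levels of these 6 transcripts, and of 1 gene listed beside them as elm1, were compared between coleoptile tips of fdl1-Mu and wild-type seedlings. The 7 genes were taken from a list of identifiers drawn up with earlier results of these data known, and all 7 were found among the 39283 genes of the expression table. Both groups were in the W22 inbred background and were grown in a chamber at 28°C. The fdl1-Mu group carried a Mu transposon insertion in FDL1, which encodes a MYB transcription factor of cuticle development, and, by its labels, included tips of normal appearance. The methods name homozygous and heterozygous fdl1-Mu plants as the source of the coleoptiles and do not say into which group heterozygotes went. Each group had 3 replicates of pooled tips, 3 to 4 mm long, from seedlings 3 d after germination. The deposited table gives each gene 1 FPKM value per group (sequenced fragments scaled to the length of the transcript and to the size of the library), pooled by the authors over the replicates. The spread between replicates is thus unknown for every value given here, no test of a difference between the groups was made, and "higher" and "lower" compare 2 pooled values.

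A phytochrome is a protein with a bound bilin chromophore, phytochromobilin, which is made from haem in the plastid. Haem oxygenase opens the haem ring to biliverdin, and phytochromobilin synthase reduces biliverdin to the chromophore. Light switches the receptor to an active form that enters the nucleus and, as known from Arabidopsis, brings about the loss of PIF transcription factors. Phytochromes thereby control seedling traits such as the elongation of mesocotyl and coleoptile. phyA accumulates in dark-grown tissue and is degraded in light, whereas phyB and phyC are more stable in light. The light conditions of the seedlings at collection are not given in the sources used here.

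The identifier listed as elm1 did not carry that name in the reference. In the RefSeq gene table of the Zm-B73-REFERENCE-NAM-5.0 assembly, from which names but no coordinates were taken, GRMZM2G101004 had the synonyms HO-1 and HO1, the name of a haem oxygenase. The names elm1 and Hy2, which stand for phytochromobilin synthase, belonged to another gene, GRMZM5G861678. Below, GRMZM2G101004 is therefore called HO1, and the values of GRMZM5G861678 are given beside it. Of the 7 identifiers, 5 were found in the RefSeq table. GRMZM2G157727 and GRMZM2G057935 had no entry there, and their names phyA1 and phyC1 are those of the list by which the genes were chosen.

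FDL1 itself (GRMZM2G056407) had an FPKM of 12.7 in fdl1-Mu tips and 4.58 in wild-type tips. The targeted transcript was thus higher in the mutant group, and an FPKM over the whole gene does not tell whether the transcripts carried the insertion. The level of ocl1, an epidermal gene, was 29.8 in fdl1-Mu and 31.3 in wild type. The meristem gene kn1, chosen as a gene not expressed in a coleoptile, was also detected, at 9.85 in fdl1-Mu and 9.35 in wild type. Whether the tips held other shoot tissue was not tested. The wax gene gl1 had been chosen, like ocl1, as a gene of the epidermis of young shoots. Unlike ocl1, it was nearly absent, at 0.208 in fdl1-Mu and 0.492 in wild type, and was set aside by Cuffdiff for too few reads. No marker particular to the coleoptile was examined. In these bulk samples, fewer cells that express a gene and less RNA per cell cannot be told apart.

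phyA transcripts were the most abundant of the phytochromes, and both copies were lower in fdl1-Mu. phyA2 (GRMZM2G181028, chromosome 5 of B73v3, 10111505 to 10117216) had an FPKM of 65.1 in fdl1-Mu tips and 89.1 in wild-type tips, a 1.37-fold lower level, or -0.45 on the log2 scale. Its FPKM was above that of 91.6% of the 23139 genes that Cuffdiff tested in fdl1-Mu, and of 94.4% of them in wild type. phyA1 (GRMZM2G157727, chromosome 1, 269388274 to 269395277) had 25.8 in fdl1-Mu and 39.4 in wild type, a 1.52-fold lower level with a log2 ratio of -0.61. This was the lowest ratio of the 7 genes. Summed over both copies, phyA was at 90.9 in fdl1-Mu and 128.4 in wild type, a log2 ratio of -0.50.

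**Figure D1:**
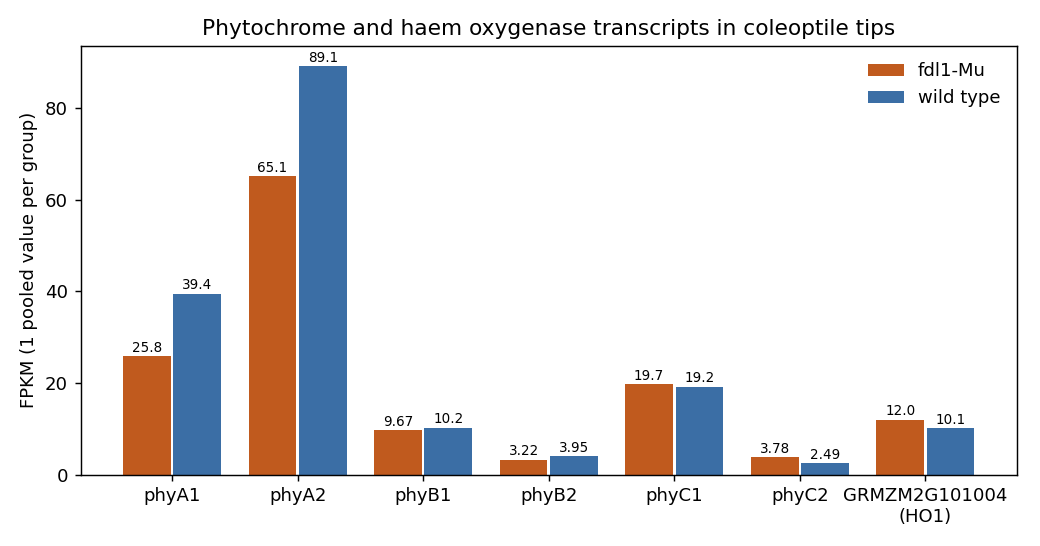
FPKM of the 6 phytochrome genes and of GRMZM2G101004 (HO1) in fdl1-Mu (orange, left) and wild type (blue, right), each bar 1 pooled value without an error. The bars of phyA1 (25.8 in fdl1-Mu against 39.4 in wild type) and phyA2 (65.1 in fdl1-Mu against 89.1 in wild type) are shorter in fdl1-Mu, and those of phyC1 are nearly equal.

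The phyB transcripts, which encode the main light-stable receptor, differed less between the groups. phyB1 (GRMZM2G124532, chromosome 1, 50023180 to 50034523) had an FPKM of 9.67 in fdl1-Mu and 10.2 in wild type, a log2 ratio of -0.08. phyB2 (GRMZM2G092174, chromosome 9, 135245567 to 135251882) had 3.22 in fdl1-Mu and 3.95 in wild type, a log2 ratio of -0.30. Both copies were lower in fdl1-Mu, and their sum was 12.9 in fdl1-Mu and 14.2 in wild type.

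Of the phyC transcripts, whose receptor works together with phyB in rice, the abundant copy was nearly level and the low copy was higher in fdl1-Mu. phyC1 (GRMZM2G057935, chromosome 1, 277059620 to 277064623) had an FPKM of 19.7 in fdl1-Mu and 19.2 in wild type, a log2 ratio of 0.04. phyC2 (GRMZM2G129889, chromosome 5, 7129937 to 7134953) had 3.78 in fdl1-Mu and 2.49 in wild type, which is 1.52-fold higher, with a log2 ratio of 0.60. This was the highest ratio of the 7 genes, at the lowest wild-type FPKM. The neighbouring gene model GRMZM2G129913 ends 127 bp before phyC2 and had the opposite direction, with 4.67 in fdl1-Mu and 7.43 in wild type, a log2 ratio of -0.67. RefSeq gives both identifiers to PHYC and also to Spo11-1, a gene of meiotic recombination, so that the table does not settle which of the 2 models is the phyC copy. None of the 7 loci overlapped another locus of the table.

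Most of the lower phytochrome total in fdl1-Mu lay in phyA. The 6 phytochromes summed to an FPKM of 127.3 in fdl1-Mu and 164.3 in wild type, a difference of -37.0. The difference in phyA was -37.6, whereas the 4 phyB and phyC genes summed to 36.4 in fdl1-Mu and 35.8 in wild type. With GRMZM2G129913 as phyC2, an alternative chosen after the values were seen, the direction of this sum turned, with 37.3 in fdl1-Mu and 40.8 in wild type. With GRMZM2G129889, phyA made up 71.4% of phytochrome FPKM in fdl1-Mu and 78.2% in wild type. phyC made up 18.5% in fdl1-Mu and 13.2% in wild type, and phyB 10.1% in fdl1-Mu and 8.63% in wild type. With GRMZM2G129913 in its place, the share of phyA was 70.9% in fdl1-Mu and 75.9% in wild type. The ratio of phyA to phyB and phyC together, with GRMZM2G129889, was 2.50 in fdl1-Mu and 3.58 in wild type.

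The duplicate copies of each type were expressed unequally, and the more abundant copy was the same one in both groups. For phyA this was copy 2, whereas for phyB and phyC it was copy 1. phyA1 made up 28.4% of phyA FPKM in fdl1-Mu and 30.7% in wild type. The log2 ratios of phyA1 and phyA2 differed by 0.16, so that the copies were lower by similar amounts. phyB1 made up 75.0% of phyB in fdl1-Mu and 72.1% in wild type, and the log2 ratios of its copies differed by 0.22. The balance of phyC differed most. phyC1 made up 83.9% of phyC in fdl1-Mu and 88.5% in wild type, and the log2 ratio of phyC1 was below that of phyC2 by 0.56. With GRMZM2G129913 taken as the second phyC copy, the shift ran the other way, and phyC1 made up 80.8% in fdl1-Mu and 72.1% in wild type. Reads that match both copies of a pair could be assigned to either, and the handling of such reads is not given in the sources used here.

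**Figure D2:**
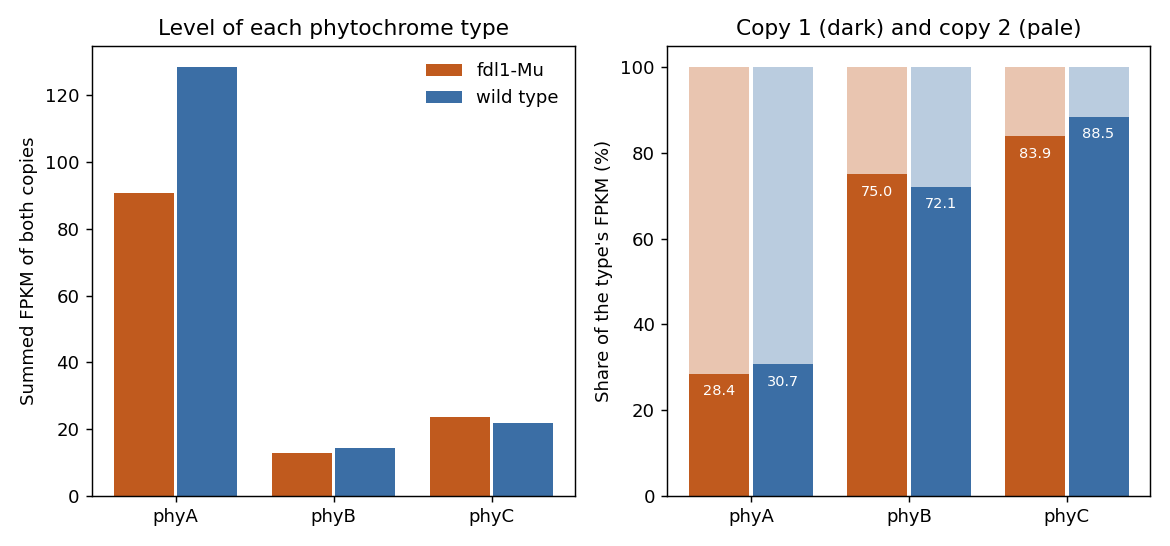
Left, the summed FPKM of both copies of phyA, phyB and phyC. Right, the percent of each type's FPKM from copy 1 (dark, with its value) and copy 2 (pale), with fdl1-Mu (orange) left of wild type (blue) in both panels and 1 pooled value per group. phyA is lower in fdl1-Mu (90.9 against 128.4 in wild type), and the widest gap in the share of copy 1 is that of phyC, with 83.9% in fdl1-Mu against 88.5% in wild type.

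The order of the levels was the same in both groups for the upper 3 genes, phyA2, phyA1 and phyC1. phyA1 was 1.31-fold above phyC1 in fdl1-Mu and 2.05-fold above it in wild type. The order of phyB1 and HO1 differed between the groups, with HO1 1.24-fold above phyB1 in fdl1-Mu and phyB1 1.01-fold above HO1 in wild type. That of phyC2 and phyB2 differed as well, with phyC2 1.17-fold above phyB2 in fdl1-Mu and phyB2 1.59-fold above phyC2 in wild type, where phyC2 is GRMZM2G129889. GRMZM2G129913 was above phyB2 in both groups, by 1.45-fold in fdl1-Mu and 1.88-fold in wild type. Whether any of these neighbours differ beyond the spread between replicates cannot be told from pooled values.

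On the chromophore side of the pathway, both genes that RefSeq names HO1 were slightly higher in fdl1-Mu. GRMZM2G101004 (chromosome 9, 89924624 to 89933813) had an FPKM of 12.0 in fdl1-Mu and 10.1 in wild type, a log2 ratio of 0.25. The second HO1 gene, GRMZM2G043277, had 14.7 in fdl1-Mu and 11.4 in wild type, a log2 ratio of 0.36. Their balance was nearly the same, with GRMZM2G101004 at 44.9% of the sum in fdl1-Mu and 46.8% in wild type. elm1 (GRMZM5G861678), the gene for the next step, was at a like level but in the other direction, with 9.46 in fdl1-Mu and 10.7 in wild type, a log2 ratio of -0.18. Over the 23116 genes compared below, the quartiles of the log2 ratio were -0.22 and 0.30. The ratios of GRMZM2G101004 and elm1 lay between these quartiles, and that of GRMZM2G043277 lay above them.

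The differences of these 7 genes were then set beside those of all genes. A 1.5-fold difference was used as the threshold, and 23116 tested genes with an FPKM above 0 in both groups were compared. Of these, 13.0% were at least 1.5-fold higher in fdl1-Mu and 6.40% at least 1.5-fold lower. Among the 7 genes, 1 (phyC2) was higher and 1 (phyA1) was lower by this measure, while the other 5 lay within 1.5-fold. With GRMZM2G129913 as phyC2, which was 1.59-fold lower, 0 were higher and 2 lower. phyA1 and GRMZM2G129889 lay just past the threshold, both at 1.52-fold, and phyA2, at 1.37-fold, was the nearest of the 7 genes within it. The log2 ratio of phyA1 was above that of 5.84% of the compared genes and that of phyA2 above 10.5% of them, whereas 12.5% of genes had a higher ratio than phyC2. Abundant genes differed less between the groups. Of the 11962 compared genes that reached an FPKM of 10 in fdl1-Mu or wild type, a limit set after the values were seen, 7.28% were at least 1.5-fold higher in fdl1-Mu and 2.82% at least 1.5-fold lower. They include 5 of the 7 genes, of which 0 were higher and 1 lower by this measure. Within these, 2.33% of genes had a lower ratio than phyA1 and 6.14% a lower ratio than phyA2. The median log2 ratio was -0.08 over the 7 genes, -0.30 with GRMZM2G129913 as phyC2, and 0.02 over all compared genes.

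**Figure D3:**
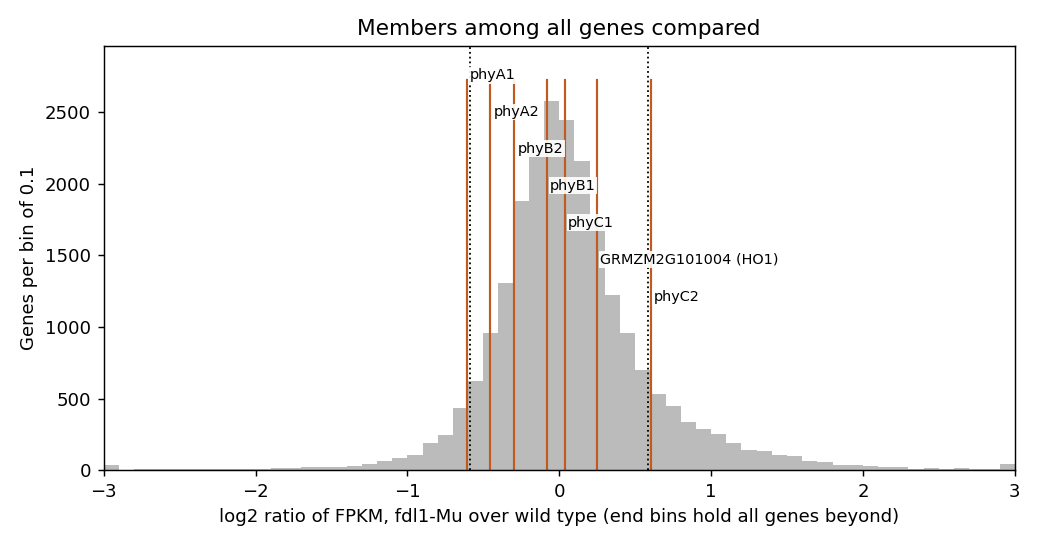
Histogram of the log2 ratio of FPKM (fdl1-Mu over wild type) of the 23116 compared genes in bins of 0.1, with the 7 members as orange lines and the 1.5-fold threshold as dotted lines. phyA1, at -0.61, and phyC2, at 0.60, lie just outside the dotted lines, and the other 5 lie between them.

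Names in use for other genes of light perception and of the chromophore and haem pathways were looked up, 84 in all. Few were found, and 9 genes besides HO1 (GRMZM2G101004) bore one of them. The only photoreceptor among these 9 genes was phot1. The RefSeq table gives no product for 2 of these, found by the names gtr1 and pks1, so that they may not belong to these pathways. Of these 9 genes, 2 were at least 1.5-fold higher in fdl1-Mu and 1 was at least 1.5-fold lower, beside the 13.0% and 6.40% of all genes above. Their median log2 ratio was 0.19. Without gtr1 and pks1, 1 of 7 was higher and 1 lower, with a median of -0.18. The lower gene was the blue-light receptor phot1 (GRMZM2G001457), also known as nph1, which in Arabidopsis mediates the bending of seedlings to light. It had an FPKM of 30.6 in fdl1-Mu and 54.3 in wild type, which is 1.77-fold lower. In both groups, the FPKM of phot1 thus lay between those of phyA1 and phyA2.

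The genes named as phytochrome-interacting factors were low. PIF4 (GRMZM5G865967) was 1.99-fold higher in fdl1-Mu, with 1.61 in fdl1-Mu and 0.808 in wild type, whereas PIF5 (GRMZM2G165042) had 0.651 in fdl1-Mu and 0.903 in wild type. The other higher gene was GRMZM2G177412, found by the name gtr1, with 28.8 in fdl1-Mu and 18.0 in wild type, a log2 ratio of 0.68. In wild type, the most abundant of the 9 genes after phot1 were GRMZM2G091302, found by the name pks1, with 52.9 in fdl1-Mu and 44.1 in wild type, and oy1 (GRMZM2G419806), with 24.8 in fdl1-Mu and 31.9 in wild type. oy1 encodes a subunit of magnesium chelatase, which directs the common precursor towards chlorophyll and away from haem. les22 (GRMZM2G044074), an earlier enzyme of the shared path, uroporphyrinogen decarboxylase, had 16.1 in fdl1-Mu and 14.1 in wild type.

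**Figure D4:**
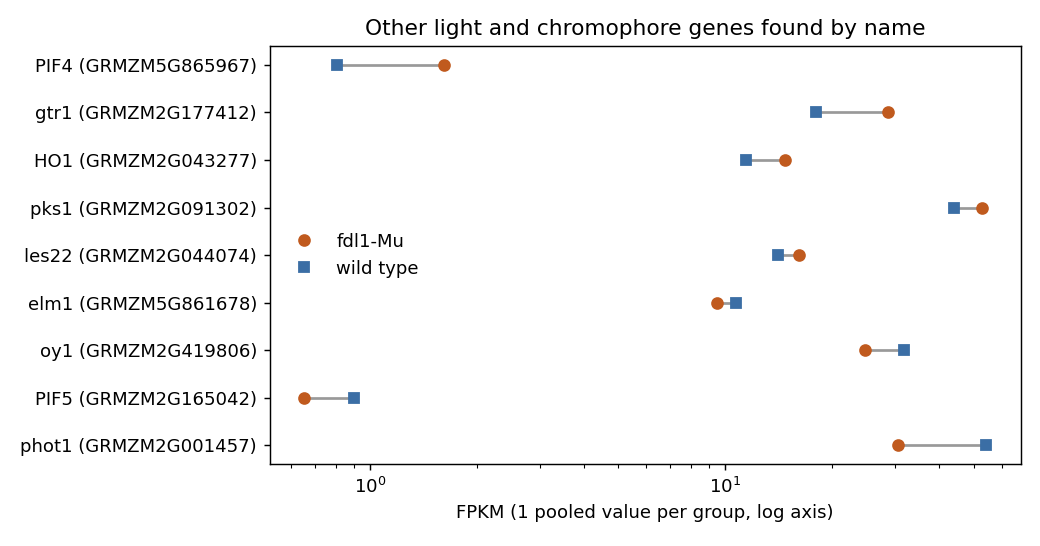
FPKM on a log axis of the 9 other genes found under names from light perception and the chromophore and haem pathways, in fdl1-Mu (orange circles) and wild type (blue squares), joined by a line, with 1 pooled value per group. phot1, at the bottom, has the widest gap of the genes that are lower in fdl1-Mu, with 30.6 in fdl1-Mu against 54.3 in wild type, and PIF4, at the top, that of the genes that are higher.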

How the data were processed

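Stranded mRNA libraries of 6 samples, 3 per group, were mapped by the authors to the B73v3 genome. The submitters' processing notes name Trimmomatic, TopHat2 2.1.1 and Cuffdiff, and parameters and annotation are not given in the sources used here. The deposited FPKM values are the authors' pooled value per gene and group, which Cuffdiff scaled to the length of the transcripts and the size of the libraries. They carry no read numbers, so that depth is unknown and intervals for counting error could not be computed. The table also holds Cuffdiff's fold change, statistic, p-value and q-value for each gene, which were not used. All 39283 genes were mapped from B73-based models, although the plants were W22.

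Log2 ratios were computed as fdl1-Mu over wild type without a pseudocount. Genes with status OK and an FPKM above 0 in both groups were compared (23116), with 1.5-fold as the threshold. Coordinates are 1-based. The members and the list of names were chosen with earlier results of these data known. Of the 84 names looked up in RefSeq, 10 entries were found. The named genes are the 7 members, FDL1, 3 markers, and the genes of the list. The phyC2 neighbour, the limit of FPKM 10 and the omission of gtr1 and pks1 were added after the values were seen. Sequences and a search for motifs, which had been planned, were not analysed here. Python 3.11.15, numpy 2.4.6, pandas 2.3.3 and matplotlib 3.10.9 were used.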

Additional observations from a re-analysis of the deposited data

How the results depend on the processing

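No paired analysis was possible because the table holds 1 pooled value per gene and group, and for the same reason no replicate could be left out. Of 88 values recomputed under alternatives, 67 moved by less than 0.1 on the log2 scale, by less than 5 percentage points or, for counts, by no more than 1.5 times. The log2 ratio of every member kept its sign under pseudocounts of 0.1 and 1, centring on the median and scaling to the group sums. With a pseudocount of 1, the log2 ratio of phyC2 was 0.45 and the difference between the phyC copies -0.42. With GRMZM2G129913 as phyC2, chosen after seeing the data, that difference was 0.71, phyC1 made up 72.1% in wild type, and the log2 ratio of summed phyC was -0.13 in place of 0.12. The members then numbered 0 higher and 2 lower past the threshold, with a median log2 ratio of -0.30. The count of members past the threshold rested on values close to it. With the smaller of the alternative folds, 1 member was higher and 2 were lower, beside 23.6% and 17.2% of all genes, and with 2-fold 0 were past it in either direction, beside 5.64% and 1.87%. The higher count was also 0 with centring, beside 12.4% of all genes, and with a pseudocount of 1, beside 7.53%. An FPKM of at least 10 left phyC2 out, so that the higher count was 0 among the 5 members kept, beside 7.28%. The lower count was 1 with centring, with a pseudocount of 1 and with this limit, beside 6.96%, 2.70% and 2.82% in this order. Of the 9 other genes, 3 were higher and 3 lower with the smaller fold and 0 in either direction with 2-fold, beside the shares of all genes given above. With a pseudocount of 1, 1 was higher, beside 7.53% of all genes. An FPKM of at least 10 left out PIF4 and PIF5, and 1 of the genes kept was higher, beside 7.28%. That gene was GRMZM2G177412, found by the name gtr1. Without gtr1 and pks1, also left out after seeing the data, 1 was higher and the median log2 ratio was -0.18 in place of 0.19.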
